A study of Drosophila melanogaster with 42 samples.

Results

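The 8 core genes of the Drosophila JAK-STAT pathway were followed through 7 maps of chromatin proteins in intestinal stem cells (ISCs). They are the ligand genes upd1, upd2 and upd3, the receptor genes dome and et, the kinase gene hop, the transcription factor gene Stat92E and the inhibitor gene Socs36E. They were chosen by name and pathway role, and make up 8 of the 17684 genes annotated on arms 2L, 2R, 3L, 3R, 4 and X in release 6 of the genome.

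The JAK-STAT pathway carries a signal from secreted Unpaired (Upd) cytokines to the nucleus. A ligand binds the receptor Domeless, the receptor-bound Janus kinase Hopscotch phosphorylates the receptor and Stat92E, and Stat92E dimers enter the nucleus and activate target genes. One of these targets is Socs36E, whose product dampens the signal. In the adult midgut, Upd cytokines released by stressed or damaged cells drive ISC proliferation and the differentiation of their daughters.

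The series asked where Kismet, the fly CHD7/CHD8 chromatin remodeller, and other chromatin proteins are found along the genome of ISCs. It holds 42 samples, of which 32 are targeted DamID samples and 10 are RNA-seq samples of sorted ISCs that were not analysed here. In DamID a protein is fused to the bacterial Dam methylase, which marks GATC sites near the places the protein visits, and Dam alone gives the background of accessible DNA. The fusions carried Kis, RNA Pol II, Brm (the ATPase of the SWI/SNF-type Brahma complex), Trr (the fly MLL3/4 histone methyltransferase), Pc (Polycomb, a repressor), HP1 (heterochromatin protein 1) or H1 (the linker histone), with 3 samples of each and 11 Dam-only samples in all.

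All 8 kinds of DamID fly had the genotype esg-gal4ts NREGal80 with a UAS-Dam transgene, and they differed in that transgene alone as the labels give it. The esg driver is active in ISCs and enteroblasts, and NREGal80 silences it where Notch is active, which leaves ISCs. Flies were kept at 18°C, moved to 29°C at 3 days of age for 1 day of expression, and each sample was made from 60 guts. For HP1 and H1 a few genotype labels end in a different numeral than the title, and the title was used for grouping. The ISC markers esg, Dl, Sox21a and spdo all had RNA Pol II peaks (4 of 4 genes), as did 3 of 3 enteroblast markers, 2 of 5 enteroendocrine markers, 2 of 5 enterocyte markers and 2 of 4 visceral muscle markers, where 41.5% of all annotated genes had one. Trr peaks lay in 1 of the 4 ISC markers, Sox21a, and in 3 of 3 enteroblast markers, where 20.5% of all genes had one. What other cells contribute to the maps was not tested.

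Each map is a list of peaks. A peak is a stretch of consecutive GATC sites with significantly more reads in the fusion than in Dam-only samples, as called by the authors. A list holds positions on the arms and nothing else, and the 3 samples of a fusion entered a single call. No count, height or replicate value is given, so the depth is unknown, no spread between replicates can be attached to any value, and no test between proteins or genes was possible. The values below are lengths and counts of peaks, not amounts of bound protein. The Kismet and RNA Pol II lists were made with the same 3 Dam-only samples. The Brm, HP1 and H1 lists share another 3, 1 of which also served for Pc, and Trr had 3 of its own. Overlaps are therefore given only for Kismet or RNA Pol II against Trr, Brm or Pc, and for Trr against Brm or Pc.

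Kismet, RNA Pol II and Trr peaks were each found in 5 of the 8 JAK-STAT genes. A gene was counted when at least 1 bp of its body, from annotated start to annotated end, lay in a peak. Kismet peaks lay in upd2, upd3, dome, Stat92E and Socs36E, where 23.5% of all annotated genes had one. RNA Pol II peaks lay in upd3, dome, hop, Stat92E and Socs36E, and 41.5% of all genes had one. Trr peaks lay in these last 5 genes as well, against 20.5% of all genes. Pc peaks lay in upd1 and upd3, so in 2 of 8 members, against 5.21% of all genes. Brm had peaks in 1 member, Socs36E (5.95% of all genes), HP1 in 1 member, et (4.64% of all genes), and H1 in 0 members (0.532% of all genes).

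The count of members in each list was the same when every gene was extended by 1 kb on both sides, while the shares of all genes with a peak became 30.3% for Kismet, 49.3% for RNA Pol II, 8.01% for Brm, 28.5% for Trr, 6.54% for Pc, 6.92% for HP1 and 0.65% for H1. Long genes can hold more peaks, and the members were longer than most genes. Their median length was 7266.5 bp, against 1710 bp over all genes and 2163 bp over protein-coding genes. The 2 longest members, Stat92E (16989 bp) and Socs36E (13743 bp), both had peaks of Kismet, RNA Pol II and Trr. Among the 2033 annotated genes of at least 10 kb, 58.7% had a Kismet peak, 59.6% an RNA Pol II peak and 47.2% a Trr peak, so such peaks were common in genes of that size. Length was not matched for the shorter members.

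**Figure D1:**
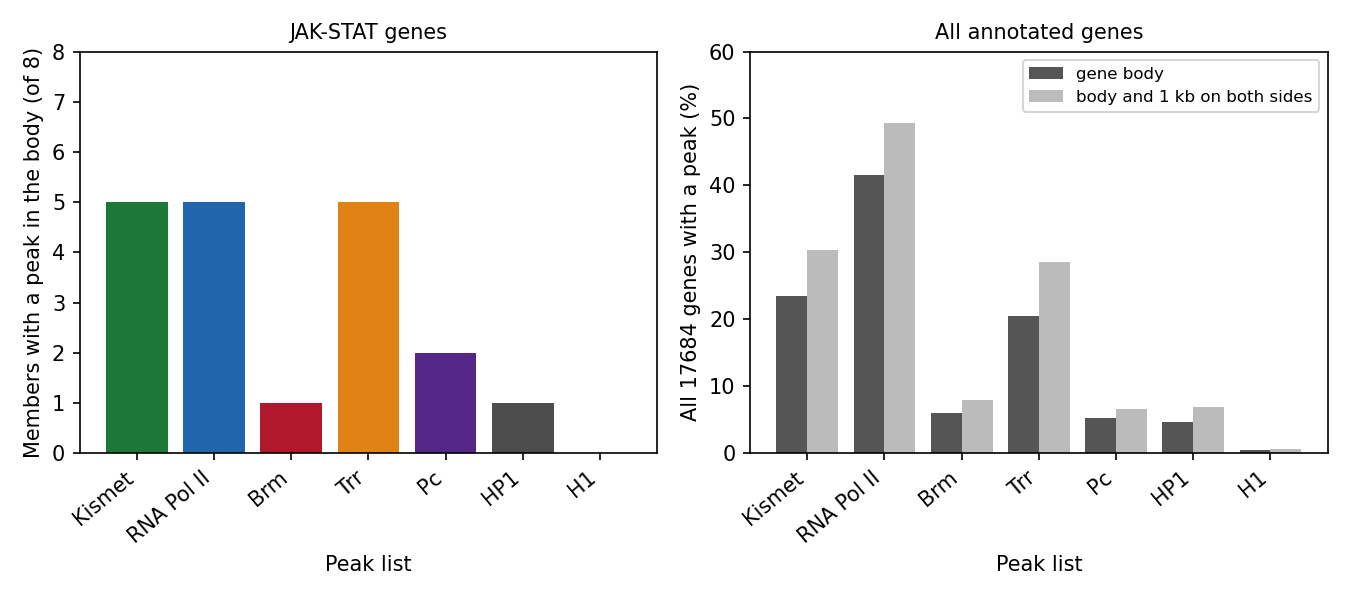
Left, number of the 8 JAK-STAT genes with at least 1 bp of the body in a peak, by protein (y axis, genes). Right, share of all 17684 annotated genes with a peak (y axis, percent), for the gene body and with 1 kb added on both sides. Kismet, RNA Pol II and Trr each reached 5 members, and RNA Pol II had the highest share of all genes, at 41.5% in the body.

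How much of each gene the peaks covered separated the members from each other (heat map of percent of gene body). Over the 8 members the median share of the body in peaks was 37.4% for Kismet, 5.04% for RNA Pol II, 3.73% for Trr and 0 for the other 4 proteins. Over all genes this median was 0 for every list. By number of proteins, 3 members (upd1, upd2 and et) had peaks in 1 list, hop in 2, dome and Stat92E in 3, and upd3 and Socs36E in 4. Among all genes, 48.5% had peaks in 0 lists, 25.0% in 1, 10.4% in 2, 9.94% in 3 and 4.82% in 4.

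**Figure D2:**
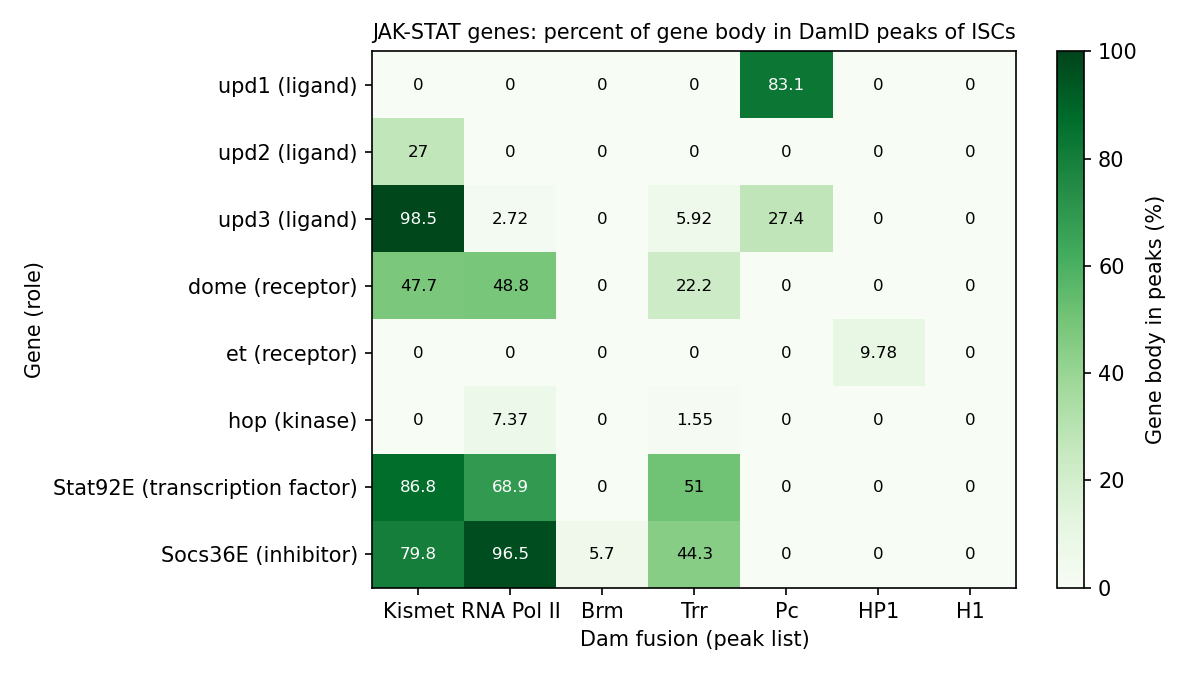
Percent of each gene body (colour and printed number) inside the peaks of each of the 7 Dam fusions (columns) for the 8 JAK-STAT genes (rows, with role). Kismet covered from 27.0% (upd2) to 98.5% (upd3) of the 5 bodies it reached, RNA Pol II from 2.72% (upd3) to 96.5% (Socs36E), and Pc covered 83.1% of upd1.

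The ligand genes upd2, upd3 and upd1 lie in this order on the X chromosome, between positions 18240654 and 18309291, a stretch of 68638 bp with 7 annotated genes in all. Their bodies differed in which proteins marked them. upd3, upd2 and upd1 had Kismet over nearly the whole body, over a minor part and over none of it, respectively. Pc had the reverse order for upd1 and upd3 and did not reach upd2.

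upd3, the ligand best known for its induction in the damaged gut, spans X positions 18277233 to 18284596 (FBgn0053542, 7364 bp). Kismet peaks held 7250 bp of it, or 98.5% of the body, in 2 peaks that ran from 18274568 to 18281934 and from 18282049 to 18284913. By base pairs in Kismet peaks upd3 ranked 578th of the 4159 genes with a Kismet peak, in which the median share of the body was 38.6%. RNA Pol II covered far less of it, 200 bp or 2.72%, as the tip of 1 peak (18275788 to 18277432) that lay mostly outside the lower-coordinate end of the gene. Trr covered 436 bp (5.92%) in 3 peaks. Pc covered 2021 bp (27.4%) in 3 peaks of 651 bp, 67 bp and 1483 bp, which placed upd3 241st of the 921 genes with a Pc peak. With 1 kb added on both sides, upd3 had 12.8% under RNA Pol II (1200 bp) and 15.3% under Trr (1436 bp), and with only the peaks no shorter than their list's median it had 0.353% under Trr and 17.7% under Pc.

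Every base pair of upd3 in a Pc peak was also in a Kismet peak, 2021 bp that made up 27.9% of the Kismet-covered part. Kismet and Pc peaks in the same gene body were found in 2.25% of all genes, and in 125 of these 398 genes (31.4%) the Pc-covered part lay wholly within Kismet peaks. upd3 was the 1 member among them. Kismet peaks held 98.5% of the upd3 body, so nearly any other peak in it had to lie within them. The 398 genes were not matched for Kismet coverage. The lists are made from ISC pools, and whether both proteins occupied the same cells was not tested. The 436 bp under Trr in upd3 also lay wholly in Kismet peaks, where they made up 6.01% of the Kismet-covered length. Trr and Pc peaks shared 0 bp in upd3, RNA Pol II and Pc peaks shared 0 bp, and RNA Pol II and Trr peaks shared 26 bp at the lower-coordinate end. Sharing nothing with Pc was also typical of all genes. The median share under Pc was 0% of the Trr length in 286 genes with both. It was 0% of the RNA Pol II length in 343 genes with both.

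upd1, the founding ligand gene of the family (FBgn0004956, X 18305354 to 18309291, 3938 bp), had peaks of Pc and of no other protein in its body. The Pc peaks held 3271 bp or 83.1% of the gene, in 3 peaks, and upd1 ranked 187th of 921 genes by base pairs. These peaks belonged to a longer series. Taking together Pc peaks less than 500 bp apart, a spacing chosen after the peaks were seen, 6 peaks ran from 18303438 to 18318168 and covered 13653 bp of 14731 bp. The longest of them, 5115 bp, began 102 bp past the higher-coordinate end of upd1 and ranked 267th in length of 2236 Pc peaks, 5.57 times the median. The nearest Kismet peak was 2376 bp from the gene, the nearest RNA Pol II peak 9709 bp, the nearest Trr peak 11111 bp and the nearest Brm peak 16025 bp. That Kismet peak, 1842 bp from 18311668 to 18313509, lay wholly inside the 5115 bp Pc peak.

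upd2, the ligand known in larvae and adults as a fat body signal as well (FBgn0030904, X 18240654 to 18243284, 2631 bp), had a Kismet peak at its lower-coordinate end and peaks of no other protein. This peak of 1359 bp, from 18240006 to 18241364, placed 711 bp or 27.0% of the body under Kismet, and upd2 ranked 2582nd of 4159 genes. Just 210 bp past the other end began a Kismet peak of 12771 bp (18243495 to 18256265), which was 7.16 times the median Kismet peak and ranked 221st in length of 4563. With 1 kb added on both sides, upd2 had 2149 bp (46.4%) in 2 Kismet peaks, and without peaks shorter than the Kismet median it had 0. Brm and Trr peaks came no nearer than 2680 bp, RNA Pol II no nearer than 2864 bp and Pc no nearer than 13577 bp.

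Kismet and Pc peaks also lay in the DNA between the ligand genes, which makes up most of the region (map of the upd region). Over the 68638 bp from upd2 to upd1, Kismet peaks covered 33623 bp or 49.0%, and Pc peaks 14728 bp or 21.5%. Over the 6 arms as a whole these lists covered 12.0% and 3.92%. The region was chosen for its genes, and it was not compared with the X alone or with other stretches of its length. Trr covered 9.16% of the region, against 4.08% of the arms, RNA Pol II 7.75% against 9.93%, Brm 0.551% against 0.416%, and HP1 and H1 had 0 bp there. The 33948 bp between upd2 and upd3 were 45.5% under Kismet and 4.48% under Pc. In the 20757 bp between upd3 and upd1 these shares were 49.3% for Kismet and 38.1% for Pc. RNA Pol II went the other way from Pc, with 13.2% of the first interval and 3.06% of the second, and Trr covered 11.7% and 9.08%. The intervals differ in gene content, with 3 annotated genes in the first and 1 in the second, and their difference was not tested.

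All 6290 bp under Trr in the region also lay under Kismet, where they were 18.7% of the Kismet length. Kismet and Pc shared 4242 bp, which is 12.6% of the Kismet length and 28.8% of the Pc length. RNA Pol II and Trr shared 4083 bp (76.8% of RNA Pol II and 64.9% of Trr). RNA Pol II and Pc shared 0 bp across the whole region. Among all genes with both, the median share of the RNA Pol II length under Pc was also 0%. Trr and Pc shared 749 bp, or 11.9% of Trr and 5.09% of Pc, in a single place between upd3 and upd1.

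**Figure D3:**
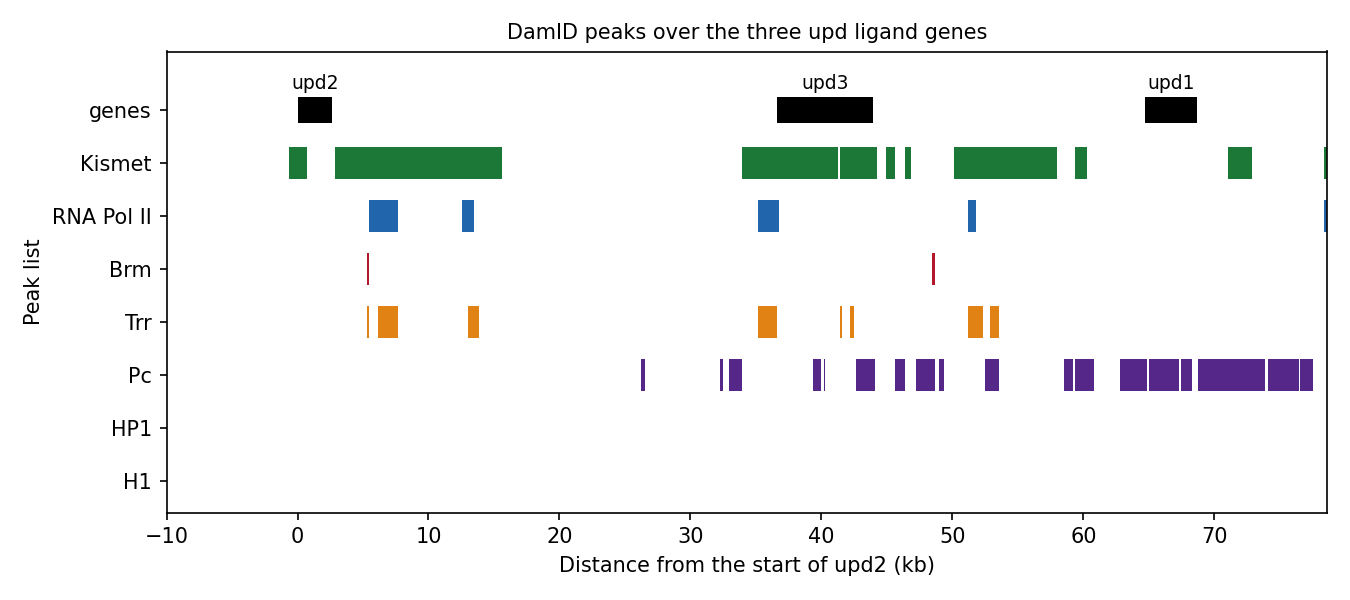
Peaks of the 7 lists (rows) around the ligand genes upd2, upd3 and upd1 (black boxes), against the distance from the lower-coordinate end of upd2 (x axis, kb). Boxes are to scale and have no height. Kismet blocks covered 49.0% of the region from upd2 to upd1, the Pc boxes crowd around upd1, and HP1 and H1 have no box.

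The receptor genes dome and et sit side by side on the X chromosome, 169 bp apart, and had no protein in common. dome encodes Domeless, the cytokine receptor of the pathway (FBgn0043903, X 19676061 to 19683518, 7458 bp). Its body was marked over the higher-coordinate part by 3 proteins, Kismet, RNA Pol II and Trr, each of which had a peak that began at position 19679883. Kismet had 1 peak of 3560 bp inside it (47.7% of the body), which ranked dome 1002nd of 4159 genes. RNA Pol II had 1 peak of 4814 bp, of which 3636 bp lay in dome (48.8%, 768th of 7344 genes) and 889 bp in the next gene, Ubqn, 289 bp away. Trr had 2 peaks of 1389 bp and 264 bp, together 1653 bp or 22.2% of the body (866th of 3625 genes). All of the Trr-covered length lay in the Kismet peak (46.4% of it) and in the RNA Pol II peak (45.5% of the part inside dome). The lower-coordinate part of dome, next to et, had no peak. The nearest HP1 peak was 1360 bp away, the nearest Brm peak 71580 bp and the nearest Pc peak 129497 bp.

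et, eye transformer, encodes a shortened receptor that pairs with Domeless and holds signalling back (FBgn0031055, X 19672312 to 19675891, 3580 bp). It had 1 HP1 peak of 350 bp, from 19674351 to 19674700, that is 9.78% of its body, and none of the other 6 proteins. The peak was short for HP1, at 0.24 times the median length and 1895th of 2197 in rank, and et ranked 604th of the 821 genes with an HP1 peak. The share was 6.27% with 1 kb added and 0 without peaks shorter than the HP1 median. The nearest Kismet and RNA Pol II peaks were 3469 bp away, outside dome, and the nearest Trr peak was 3991 bp away, inside dome.

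hop encodes Hopscotch, the pathway's one Janus kinase in flies (FBgn0004864, X 11360930 to 11368098, 7169 bp). It was marked at its higher-coordinate end and nowhere else in the body. RNA Pol II had 1 peak of 2336 bp (11367571 to 11369906) with 528 bp in hop, or 7.37% of the body, and the peak also covered all 839 bp of Tim8, a gene 346 bp away. Trr had 1 peak of 927 bp with 111 bp in hop (1.55%) and 470 bp in Tim8. These lengths put hop 4618th of 7344 genes for RNA Pol II and 3320th of 3625 for Trr. The 111 bp were also under RNA Pol II, where they were 21.0% of its length in hop. With 1 kb added, hop had 1528 bp (16.7%) under RNA Pol II and 927 bp (10.1%) under Trr. To which of the neighbouring genes these peaks belong was not tested. The nearest Kismet peak was 3866 bp from hop, the nearest HP1 peak 11515 bp, the nearest Brm peak 19350 bp and the nearest Pc peak 49004 bp.

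Stat92E and Socs36E, at the nuclear end of the pathway, were the most heavily covered members for RNA Pol II and Trr. Each ranked among the first 200 genes by base pairs in these lists, a measure that favours long genes. By percent of body, Stat92E ranked 1765th for RNA Pol II and 503rd for Trr, and Socs36E 1112th and 638th. Stat92E, which encodes the STAT transcription factor, spans 3R positions 20535323 to 20552311 (FBgn0016917, 16989 bp). Kismet covered 14745 bp of it (86.8%, 246th of 4159 genes) in 2 peaks, the longer of which, 12099 bp from 20540291 to 20552389, was 6.79 times the median Kismet peak. RNA Pol II covered 11702 bp (68.9%, 162nd of 7344 genes) in 5 peaks spread from one end to the other. The first of these ran from 20534419 to 20538046 and the last from 20548415 to 20552832.

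Trr covered 8671 bp of Stat92E (51.0%), which placed it 85th of 3625 genes, in 3 peaks of 656 bp, 877 bp and 7138 bp. The last, from 20543997 to 20551134, was 10.9 times the median Trr peak and ranked 43rd in length of 4840. All 8671 bp lay in Kismet peaks and made up 58.8% of their length in the gene, while 5783 bp lay in RNA Pol II peaks (66.7% of Trr and 49.4% of RNA Pol II). Trr peaks were thus inside the body and away from its ends, where Kismet and RNA Pol II peaks reached past both. Beyond the lower end these peaks took in 286 bp of MtnE and 340 bp of MtnD, both metallothionein genes near Stat92E. Beyond the higher end they took in part of DPCoAC, 5 bp under Kismet and 448 bp under RNA Pol II, and the RNA Pol II peak also 198 bp of att-ORFB. Of Brm, Pc, HP1 and H1, Pc had the nearest peak, at 169068 bp.

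Socs36E encodes a suppressor of cytokine signalling and is a widely used readout of Stat92E activity (FBgn0041184, 2L 18138675 to 18152417, 13743 bp). RNA Pol II covered 13260 bp of it, or 96.5%, in 3 peaks, and placed it 126th of 7344 genes. The longest of the 3, 10422 bp from 18143050 to 18153471, was 8.45 times the median and ranked 81st in length of 6821. Kismet covered 10962 bp (79.8%, 370th of 4159 genes) in peaks of 3710 bp and 8306 bp, and left the lower-coordinate end of the gene free. Trr covered 6085 bp (44.3%, 153rd of 3625 genes) in peaks of 2080 bp and 5390 bp, the second of them ranking 90th of 4840 and running past the higher-coordinate end.

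Socs36E was the 1 member with Brm, in 2 peaks of 220 bp and 564 bp that held 784 bp or 5.7% of the body and placed it 167th of 1053 genes. The longer was 2.18 times the median Brm peak. All 784 bp of Brm lay in peaks of Kismet (7.15% of its length in the gene), of RNA Pol II (5.91%) and of Trr (12.9%). Of the Trr length, 5991 bp or 98.5% lay in Kismet peaks, which is 54.7% of the Kismet length, and all 6085 bp lay in RNA Pol II peaks, or 45.9% of their length. Over all genes, Kismet and Brm peaks in the same body were found in 5.6%, with all of the Brm length inside Kismet peaks in 77.9% of these, and Trr and Brm in 5.19%, with 58.0%. lncRNA:CR44478, a non-coding gene of 402 bp inside Socs36E, lay under these same peaks, so its share and that of Socs36E cannot be told apart there. Outside the gene, RNA Pol II also covered 1041 bp of kel on the lower side, and Trr covered 680 bp, Kismet 349 bp and RNA Pol II 349 bp of CG17681 on the higher side. The nearest Pc peak was 168839 bp from Socs36E and the nearest H1 peak 135768 bp.

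**Figure D4:**
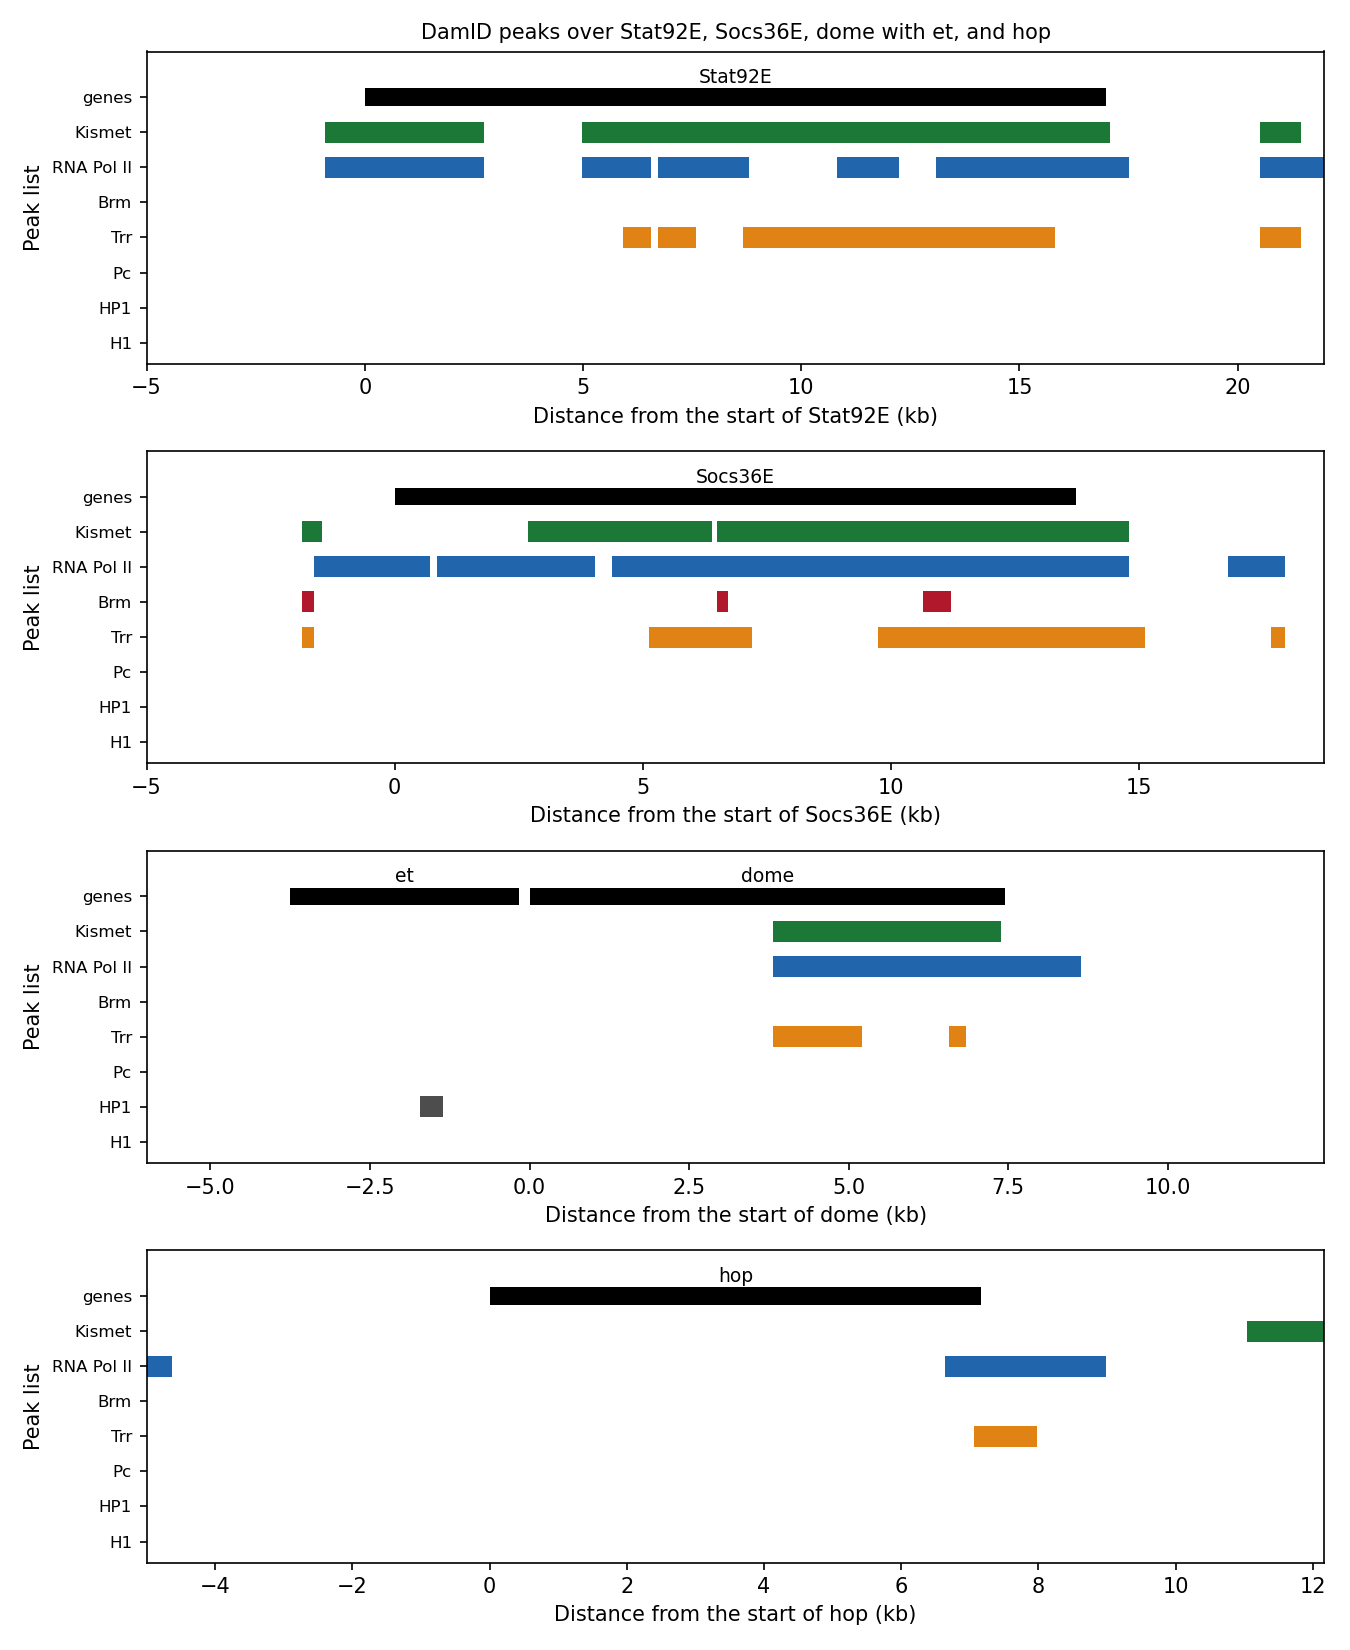
Peaks of the 7 lists (rows) over Stat92E, Socs36E, dome with et, and hop (black boxes), against the distance from the lower-coordinate end of each gene (x axis, kb, with a scale of its own in each panel). Kismet, RNA Pol II and Trr boxes fill much of Stat92E and Socs36E (44.3% to 96.5% of the body), have a common left edge in dome (its second Trr box lies farther right), and are at the right end of hop for RNA Pol II and Trr.

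Kismet and Trr peaks occurred together in 4 members, upd3, dome, Stat92E and Socs36E, and 15.3% of all genes had both. In 3 of these 4 every base pair under Trr lay under Kismet, as in 1916 of the 2705 genes with both (70.8%). Kismet held 98.5% of upd3 and 86.8% of Stat92E, which left little room for Trr outside Kismet peaks there. In the members Trr took up from 6.01% of the Kismet length in upd3 to 58.8% in Stat92E, where the median over all genes with both was 49.2%. RNA Pol II and Trr occurred together in 5 members and in 19.0% of all genes, with all of the Trr length inside RNA Pol II peaks in 3 of 5 members and in 67.1% of the genes with both.

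Genes with the most similar coverage were then sought elsewhere in the genome. Likeness was measured as the sum, over the 7 lists, of the absolute differences in percent of body covered, among protein-coding genes of 0.67 to 1.5 times the member's length, for members with peaks in at least 3 lists. For dome the nearest of 1714 genes were CDase (6.45 percentage points) and CG2924 (7.23), and for Stat92E the nearest of 946 were neb (6.77) and CG31689 (11.7). For Socs36E the nearest of 1096 genes, Gp150 and Treh, were 23.7 and 25.0 points away. upd3 stood farthest from its nearest genes, with CG43187 at 43.5 and Tmep at 54.2 points among 1723 genes, and neither had a Pc peak.

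A list of 19 further pathway genes held 9 regulators and 10 targets. Of the 9 regulators, 7 had Kismet peaks, 8 RNA Pol II peaks, 7 Trr peaks, 1 a Brm peak, 1 an HP1 peak and 0 Pc or H1 peaks. Of the 10 targets, 2 had Kismet, 1 RNA Pol II, 2 Trr, 1 Brm and 3 Pc peaks, and 0 had HP1 or H1 peaks. Of all genes, 23.5% had a Kismet peak, 41.5% an RNA Pol II peak, 20.5% a Trr peak and 5.21% a Pc peak. Lengths differ between the groups and were not matched.

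Among the regulators, ken, a transcriptional repressor that competes for Stat92E sites, was 64.0% under Kismet, 70.4% under RNA Pol II and 45.1% under Trr. Cdk4, the kinase partner of Cyclin D, had 76.0%, 75.4% and 59.8%, together with 106 bp under HP1. Ptp61F, a tyrosine phosphatase that removes the activating phosphates, had the most Kismet-covered base pairs of the 9, with 13490 bp in 7 peaks, but these were 10.2% of a body of 132765 bp. Socs16D, of the same inhibitor family as Socs36E, had 653 bp under Kismet, 828 bp under RNA Pol II and 648 bp under Trr. Socs44A, another SOCS gene, had 58 bp under Kismet, 610 bp under RNA Pol II and no Trr peak. BRWD3 had 993 bp, 1741 bp and 993 bp, and Stam, an endosomal sorting adaptor, 292 bp, 511 bp and 511 bp, for Kismet, RNA Pol II and Trr. Su(var)2-10, the fly PIAS protein, had 860 bp under RNA Pol II and 670 bp under Trr but no Kismet peak, and CycD had no peak of any protein.

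Among the targets, Pc lay over the genes of 2 transcription factors known as Stat92E targets in testis stem cells. It covered 41461 bp or 77.6% of chinmo, 11th of 921 genes by base pairs, and 21577 bp or 92.7% of zfh1, 34th of 921. By percent of body chinmo ranked 253rd and zfh1 180th. chinmo also had 770 bp under Kismet and 235 bp under Trr, and zfh1 had no other protein. apt, a transcription factor gene that limits STAT signalling in the ovary, was covered mainly by Kismet. A single Kismet peak held 32029 bp or 92.5% of apt, 43rd of 4159 genes by base pairs and 750th by percent of body. The gene also had 15919 bp under RNA Pol II, 9335 bp under Trr, 880 bp under Brm and 172 bp under Pc. The stress peptide genes TotA, TotB, TotC, TotM and TotX, the virus-induced gene vir-1 and slbo had no peak of any protein in their bodies. slbo lay 293 bp from the nearest Kismet and RNA Pol II peaks.

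**Figure D5:**
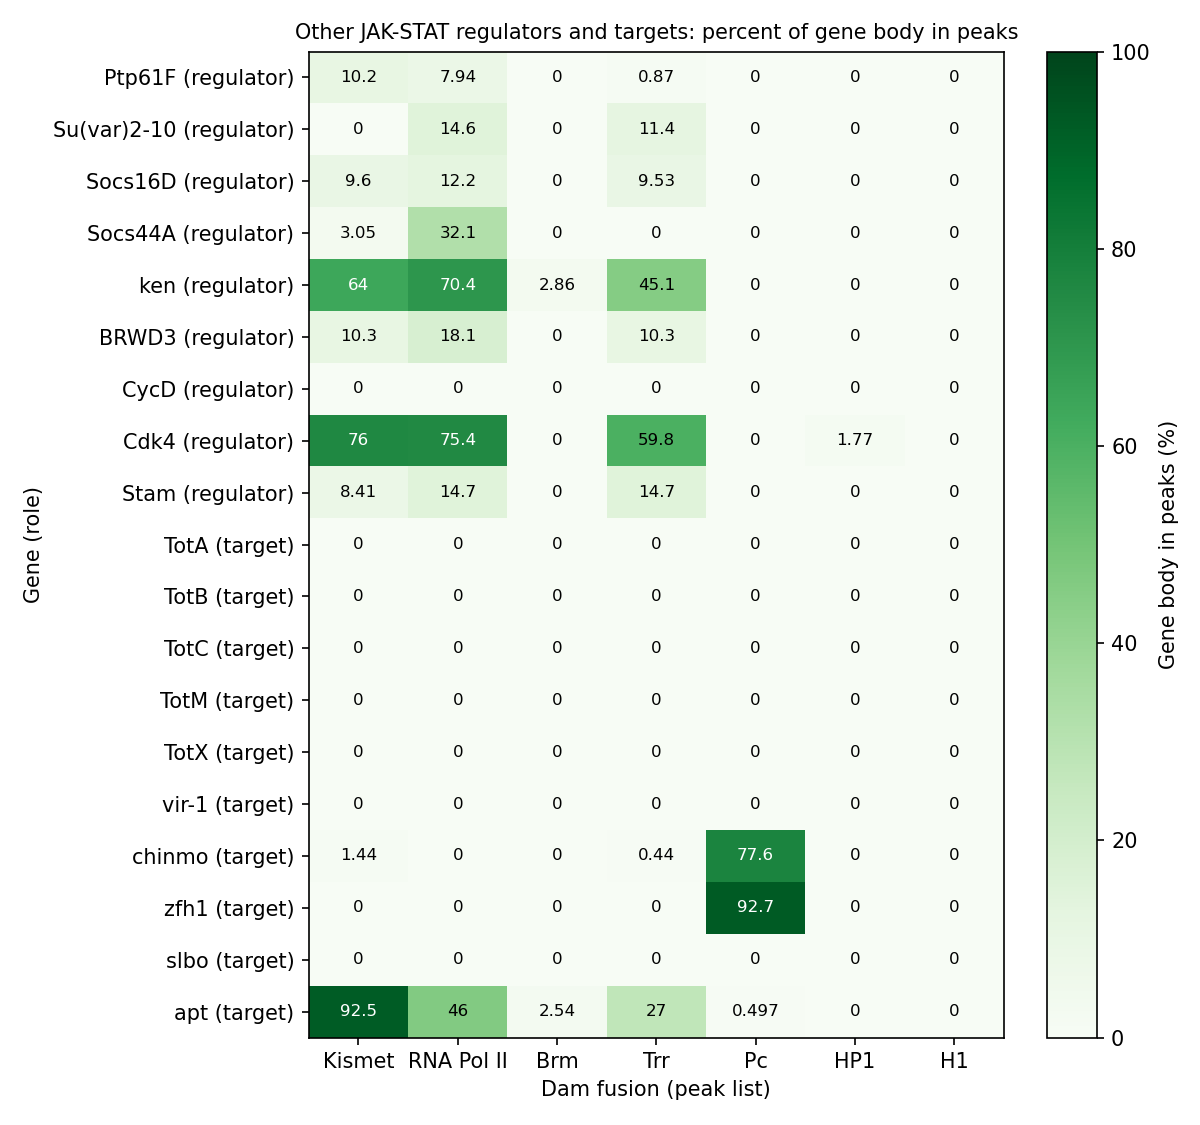
Percent of each gene body (colour and printed number) inside the peaks of the 7 Dam fusions (columns) for 19 further JAK-STAT genes, 9 regulators and 10 targets (rows). Regulators carry mostly Kismet, RNA Pol II and Trr, Pc covers 77.6% of chinmo and 92.7% of zfh1, and 7 of the targets and 1 regulator (CycD) are at 0 in every column.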

How the data were processed

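The deposited peak lists are positions (arm, start, end), with no score. The authors aligned the reads with Bowtie2 (release 6), used bedtools for counts at every GATC site, left out sites with few of them, compared each fusion with its controls in DESeq2, and joined neighbouring enriched sites into 1 peak. Versions are not given in the sources used here. A site with few reads could not enter a peak, so a missing peak does not show that a protein was absent. Gene limits and identifiers came from the RefSeq table of release 6, in which all 8 symbols were found. It holds no strand, exon or sequence, so ends are named by coordinate.

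Peak starts were converted from 0-based to 1-based, and base pairs of each gene in each list were counted, with and without 1 kb on both sides. Ranks are by base pairs, which favours long genes, except where percent of body is named. Overlap counting was tested on simulated intervals. The 8 members, the further pathway genes and all alternatives were chosen with earlier results of these data known. Genes named are the 8 members, markers of gut cell types, neighbours within 1 kb that share a peak with one, the 19 pathway genes, and the 2 nearest genes by coverage for members with peaks in at least 3 lists. RNA-seq of 4 kis, 3 trr and 3 white RNAi samples was not analysed here. Python 3.11.15, NumPy 2.4.6, pandas 2.3.3 and matplotlib 3.10.9 were used.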

Additional observations from a re-analysis of the deposited data

How the results depend on the processing

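Asking for at least 10% of the body in peaks left 3 members with RNA Pol II and 3 with Trr (in both cases without upd3 and hop), and 0 with Brm and 0 with HP1. Keeping only peaks no shorter than their list's median left 0 members with HP1. The Kismet count was 4 instead of 5, without upd2, with long peaks or with 2 known sites inside the gene, and the Trr count was 4, without hop, with at least 200 bp or 2 known sites. The other counts of members were as in the main rule under these alternatives and with 1 kb added. With at least 200 bp the RNA Pol II count rested on upd3, which had exactly 200 bp. Except with 1 kb added, the shares of all genes under these alternatives are not given, so the counts cannot be set against them. Adding 1 kb raised 10 of the 19 percentages above 0 and lowered 9. Keeping long peaks lowered 7, 2 of them to 0. A rule of GATC sites read from the genome was not run. No paired analysis was possible because the lists pool the samples of a fusion, and no replicate could be left out. Depth is unknown, so what it limits cannot be stated.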

Other observations

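In the region from upd2 to upd1, 6 of 8 Kismet peaks touched a Pc peak. Of these 6, 3 met a Pc peak with just the 4 bp of a single GATC site in common, so that one peak began where the other ended. The first of these 3, which runs into upd3, also held further Pc peaks of 651 bp and 67 bp. The sites were at X 18274568 to 18274571, between upd2 and upd3, and at 18286239 to 18286242 and 18287010 to 18287013, between upd3 and upd1. The sites between upd3 and upd1 are the ends of a single Pc peak of 775 bp, so those meetings are not separate cases. Over the whole list 408 of 4563 Kismet peaks touched a Pc peak, and 90 of them (22.1%) met at least 1 Pc peak in this way, whether or not they touched others. The region was looked at because of its genes, 6 peaks are few, and the difference was not tested.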
